A study of Homo sapiens with 12 samples.

Results

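The genes described here were selected on their time course in A549 cells, a human lung adenocarcinoma line, after addition of transforming growth factor β (TGFβ). Their mean over 12 h and 24 h lay within set limits of the starting level, and their means at 48 h and 96 h were much lower. Of 15871 protein-coding genes in the count table, 7315 had a starting level of at least 10 CPM (UMIs of a gene scaled to a common library size), and 84 of these met the rule (1.15%). The rule used 4 quantities. B was the mean CPM of the 4 libraries at 0 h and 0.5 h, and had to reach 10. The mean of the 4 libraries at 12 h and 24 h had to lie between 0.67 and 1.5 times B. Taken singly, 12 h and 24 h both lay within these limits for 50 of the 84 genes. The mean at 48 h and the mean at 96 h each had to be at most 50% of B. All 84 genes passed the low-count filter of the later tests. Because these values chose the genes, the levels and ratios to B are given as a description, with no test.

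A549 cells received TGFβ at 4 ng/mL and 2 libraries were made at each of 6 times, from 0 h and 0.5 h over 12 h and 24 h to 48 h and 96 h. Live single cells, negative for propidium iodide, were sorted into 384 wells per library and read by CEL-Seq2, a method that counts the 3′ end of each mRNA once through a unique molecular identifier (UMI). Wells were kept as cells if they held 100 to 40000 UMIs from 2000 to 7000 genes, with no more than 35% of UMIs mitochondrial. This left 1871 of 4608 wells, from 118 at 96 h to 405 at 12 h, and the counts of the cells of a library were summed. The sums of protein-coding UMIs ran from 1264044 to 4500036 per library. Nothing in the labels says that the libraries of a time came from separate cultures, so the spread between them may be technical. The series holds no cells kept without TGFβ for 48 h or 96 h, and time in culture and time in TGFβ cannot be told apart. According to the paper, medium with TGFβ was changed every other day, so such changes cannot be told apart from time either. The 6 markers fixed for the line (KRT8, KRT18, KRT7, KRT19, EPCAM and CDH1) summed to 4241 to 8159 CPM in the 12 libraries. That sum was almost all keratin, with EPCAM at 0.791 to 6.55 CPM, and KRT8 and KRT18 are themselves among the 84 genes. Endothelial markers summed to at most 0.273 CPM, immune markers to at most 9.54 CPM and fibroblast markers to at most 7.12 CPM. Only 2 of 4 endothelial and 2 of 4 immune markers were in the count table. PTPRC was at 0 in every library, so the immune sum was CD14 alone. The 2 replicate numbers were made with different sets of 384 well barcodes, so a barcode could recur only between libraries of one number, where kept cells shared 22 to 113 barcodes.

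TGFβ binds a pair of serine/threonine kinase receptors that phosphorylate SMAD2 and SMAD3, which join SMAD4 and act on transcription together with other factors. In A549 cells it drives an epithelial to mesenchymal transition, in which cells lose junctions and keratin-rich epithelial features and gain a spindle shape over days. A549 cells also carry a mutated KEAP1, the protein that normally marks the transcription factor NRF2 for degradation, so they are known for constant high expression of NRF2 targets such as aldo-keto reductases. They also express liver-type plasma proteins such as fibrinogen. Members of all 3 programs, epithelial, NRF2 and liver-type, were found among the 84 genes.

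Promoters were available in the RefSeq table (GRCh38.p14) for 58 of the 84 genes, as 300 bases from 250 before the transcription start to 50 after it. The following 5 belong to the 3 genes with the highest B and the 2 with the lowest late level relative to B among those with an entry, and are shown because these genes carry the largest differences described here. Each is written 5′ to 3′ on the strand of its gene, and capitals mark every match to the 16 motifs searched on both strands.
AKR1C2 (chr10:5003808-5004107, minus strand): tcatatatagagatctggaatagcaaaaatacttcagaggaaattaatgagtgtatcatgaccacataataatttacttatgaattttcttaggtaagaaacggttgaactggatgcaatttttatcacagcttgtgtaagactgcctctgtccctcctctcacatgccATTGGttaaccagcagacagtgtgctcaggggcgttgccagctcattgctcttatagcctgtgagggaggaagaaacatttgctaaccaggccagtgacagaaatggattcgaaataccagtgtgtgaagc
AKR1C1 (chr10:4963165-4963464, plus strand): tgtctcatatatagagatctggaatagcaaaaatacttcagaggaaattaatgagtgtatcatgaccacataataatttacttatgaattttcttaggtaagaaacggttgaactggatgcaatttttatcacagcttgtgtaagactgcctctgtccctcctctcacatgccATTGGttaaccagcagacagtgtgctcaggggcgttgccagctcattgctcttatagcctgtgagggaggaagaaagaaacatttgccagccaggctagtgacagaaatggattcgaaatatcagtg
KRT8 (chr12:52926420-52926719, minus strand): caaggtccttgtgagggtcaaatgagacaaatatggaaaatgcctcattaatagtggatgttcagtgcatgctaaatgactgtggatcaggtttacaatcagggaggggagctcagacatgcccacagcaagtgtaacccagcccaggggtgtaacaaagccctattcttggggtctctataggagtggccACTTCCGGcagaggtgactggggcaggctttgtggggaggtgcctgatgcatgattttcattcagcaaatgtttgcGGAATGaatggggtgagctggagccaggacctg
S100P (chr4:6693628-6693927, plus strand): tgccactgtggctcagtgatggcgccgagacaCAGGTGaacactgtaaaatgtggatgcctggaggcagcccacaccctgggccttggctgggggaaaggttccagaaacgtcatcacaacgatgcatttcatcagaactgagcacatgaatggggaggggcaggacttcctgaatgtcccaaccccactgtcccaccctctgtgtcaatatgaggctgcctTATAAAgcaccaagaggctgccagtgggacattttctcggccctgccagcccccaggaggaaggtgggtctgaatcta
APOH (chr17:66229366-66229665, minus strand): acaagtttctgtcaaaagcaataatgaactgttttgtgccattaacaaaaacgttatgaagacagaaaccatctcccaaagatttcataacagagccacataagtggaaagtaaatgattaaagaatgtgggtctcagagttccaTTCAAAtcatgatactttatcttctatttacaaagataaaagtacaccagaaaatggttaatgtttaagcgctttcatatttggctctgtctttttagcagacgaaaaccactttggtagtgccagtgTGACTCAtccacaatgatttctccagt
The AKR1C1 and AKR1C2 windows, shifted by 4 bases against each other, were identical at 264 of 296 positions (89.2%) and shared an unbroken run of 245 bases, with a CCAAT box (CCAAT) on the opposite strand 77 and 81 bases before the start. The S100P window held a TATA box (TATAAA) 28 bases before the start and a SNAI and ZEB type E-box (CAGGTG) 218 bases before it. The KRT8 window held an ETS-type match and a TEAD-type match (GGAATG), and the APOH window an AP-1 match (TGANTCA) 24 bases after the start and a CHR match (TTTGAA) on the opposite strand. The AKR1C2, KRT8 and APOH windows lie inside the spans that GENCODE 44 gives these genes, away from their ends, while the AKR1C1 and S100P windows lie at the annotated start.

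The 10 genes of oxidant defence and detoxification were the largest group by level. AKR1C2, a reductase of steroids and of reactive aldehydes and ketones, stood at 2806 and 3429 CPM (0 h), 2815 and 2762 (0.5 h), 1892 and 2794 (12 h), 1773 and 2208 (24 h), 524 and 599.8 (48 h), and 423 and 517 (96 h). All 4 late libraries were below all 8 earlier ones, and the mean at 96 h, 470.0 ± 66.1 CPM (SD, n = 2), was 6.28-fold below B. AKR1C1, its neighbor on chromosome 10, stood at 574 to 862 CPM at 0 h and 0.5 h, 362 to 587 at 12 h and 24 h, and 73.3 to 149 at 48 h and 96 h. The coding sequences of AKR1C1 and AKR1C2 are near-identical, so how reads were shared between them is uncertain. The third family member in the cluster, AKR1C3, was not selected, because it was already at 0.567 of B at 12 h and 24 h, and it stood at 0.209 of B at 48 h and 0.161 at 96 h.

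Genes of glutathione metabolism and other enzymes followed with smaller differences from B. SLC7A11, the cystine importer that feeds glutathione synthesis, held 242 to 270.4 CPM through 12 h and 24 h and then 127 and 131 (48 h) and 98.9 and 109 (96 h). GSR, which regenerates reduced glutathione, stood at 353 CPM for B, 237 at 12 h and 24 h, 169 at 48 h and 146 at 96 h. EPHX1, an epoxide hydrolase, and SQOR, which oxidizes sulfide in mitochondria, stood at 0.372 and 0.340 of B at 48 h and 0.388 and 0.365 at 96 h. TRIM16L was 2.06-fold below B at 48 h and 2.95-fold below at 96 h. ALDH9A1, an aldehyde dehydrogenase, was at 0.494 and 0.475 of B. Over the 10 genes of the group the summed level ran from 6632 to 7733 CPM at 0 h and 0.5 h, 4835 to 6385 at 12 h and 24 h, 2022 and 2305 (48 h), and 1789 and 1847 (96 h).

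Within a list of NRF2 targets written for this work, 43 genes had B of at least 10 CPM, and 8 of them (18.6%, against 1.15% of all such genes) met the rule. Another 15 were already below 0.67 of B at 12 h and 24 h and at most 50% at both late times. The cut at 0.67 is all that separates them from the 8. Some genes lay close to it on either side, with TRIM16 at 0.655 among the 15, and GSR and TRIM16L at 0.672 among the 8. Examples of the 15 further from the cut are AKR1B10 (0.367 of B at 12 h and 24 h, 0.160 at 48 h), GCLC, the catalytic subunit of the first enzyme of glutathione synthesis (0.284 and 0.245), and ALDH3A1 (0.484 and 0.0163). A further 15 were below B at both late times without meeting either pattern, and 5 were not, among them HMOX1, the heme-degrading enzyme, at 1.67 of B at 48 h and 2.19 at 96 h. The list was compiled with results of these data known, and the counts are descriptions.

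The simple-epithelial keratin pair was held through 24 h and was lower at 48 h and 96 h. KRT18 stood at 1001 and 1852 CPM (0 h), 1912 and 1356 (0.5 h), 1289 and 1652 (12 h), 1292 and 1646 (24 h), 393 and 693 (48 h), and 414 and 514 (96 h). The replicate libraries of KRT18 differed widely, yet the highest late library was below the lowest earlier one. KRT8, its partner in the filament, stood at 928 and 1334 CPM (0 h), 1367 and 1345 (0.5 h), 1283 and 1172 (12 h), 1039 and 1048 (24 h), 616 and 599.8 (48 h), and 642 and 585 (96 h), which put it just inside the 50% limit at both times (0.489 and 0.493). The annotated spans of both genes touch on chromosome 12 and both have many processed pseudogenes, so their counts may include or lack shared reads. KRT7, another keratin of simple epithelia, went the other way and stood at 2.09 of B at 12 h and 24 h and 1.67 and 1.31 at 48 h and 96 h. KRT19 came down early, to 0.290 of B at 12 h and 24 h.

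Junction and apical genes made up the rest of that group. CLDN1, a sealing claudin of tight junctions, stood at 98.4 and 70.7 CPM (0 h), 94.5 and 111 (0.5 h), 130.5 and 109.5 (12 h), 114 and 82.8 (24 h), 29.1 and 34.9 (48 h), and 24.5 and 32.6 (96 h). It was therefore above B at 12 h and 24 h (1.16 of B) before being 2.93-fold and 3.28-fold below. CLDN2, which forms cation pores, was more uneven, with 33.2 to 80.6 CPM at 0 h and 0.5 h and 6.67 to 23.3 at the late times, and its late and earlier libraries overlapped. EZR, which links the apical membrane to actin, stood at 91.2 ± 5.16 CPM at 48 h and 115 ± 0.350 at 96 h (SD, n = 2) against a B of 242. SLC9A3R1, an ezrin-binding scaffold, overlapped between 24 h and 48 h (32.6 and 40.4 CPM in the nearest libraries). MYO5B, a motor for recycling vesicles to the apical side, POF1B and USP53, both found at cell junctions, stood at 0.181, 0.315 and 0.479 of B at 48 h. For POF1B late and earlier libraries overlapped. CDH17, the liver-intestine cadherin, was at 12.2 to 16.97 CPM at 0 h and 0.5 h and was read 3 times in all at 96 h, 13.3-fold lower with an exact 95% interval of 4.47 to 64.8, which covers counting error only.

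In the list of epithelial markers, 15 genes had B of at least 10 CPM. Of these, 4 met the rule (KRT18, KRT8, CLDN1 and CLDN2), or 26.7% against 1.15% of all such genes. A further 6 came down early, with CDH1, the E-cadherin gene, at 0.170 of B at 12 h and 24 h and ELF3, an epithelial transcription factor, at 0.217. Another 4 were not below B at both late times (KRT7, TJP1, F11R and DSP), and JUP was below B at both late times without meeting either pattern. The list thus held genes of an early, a late and neither course.

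**Figure D1:**
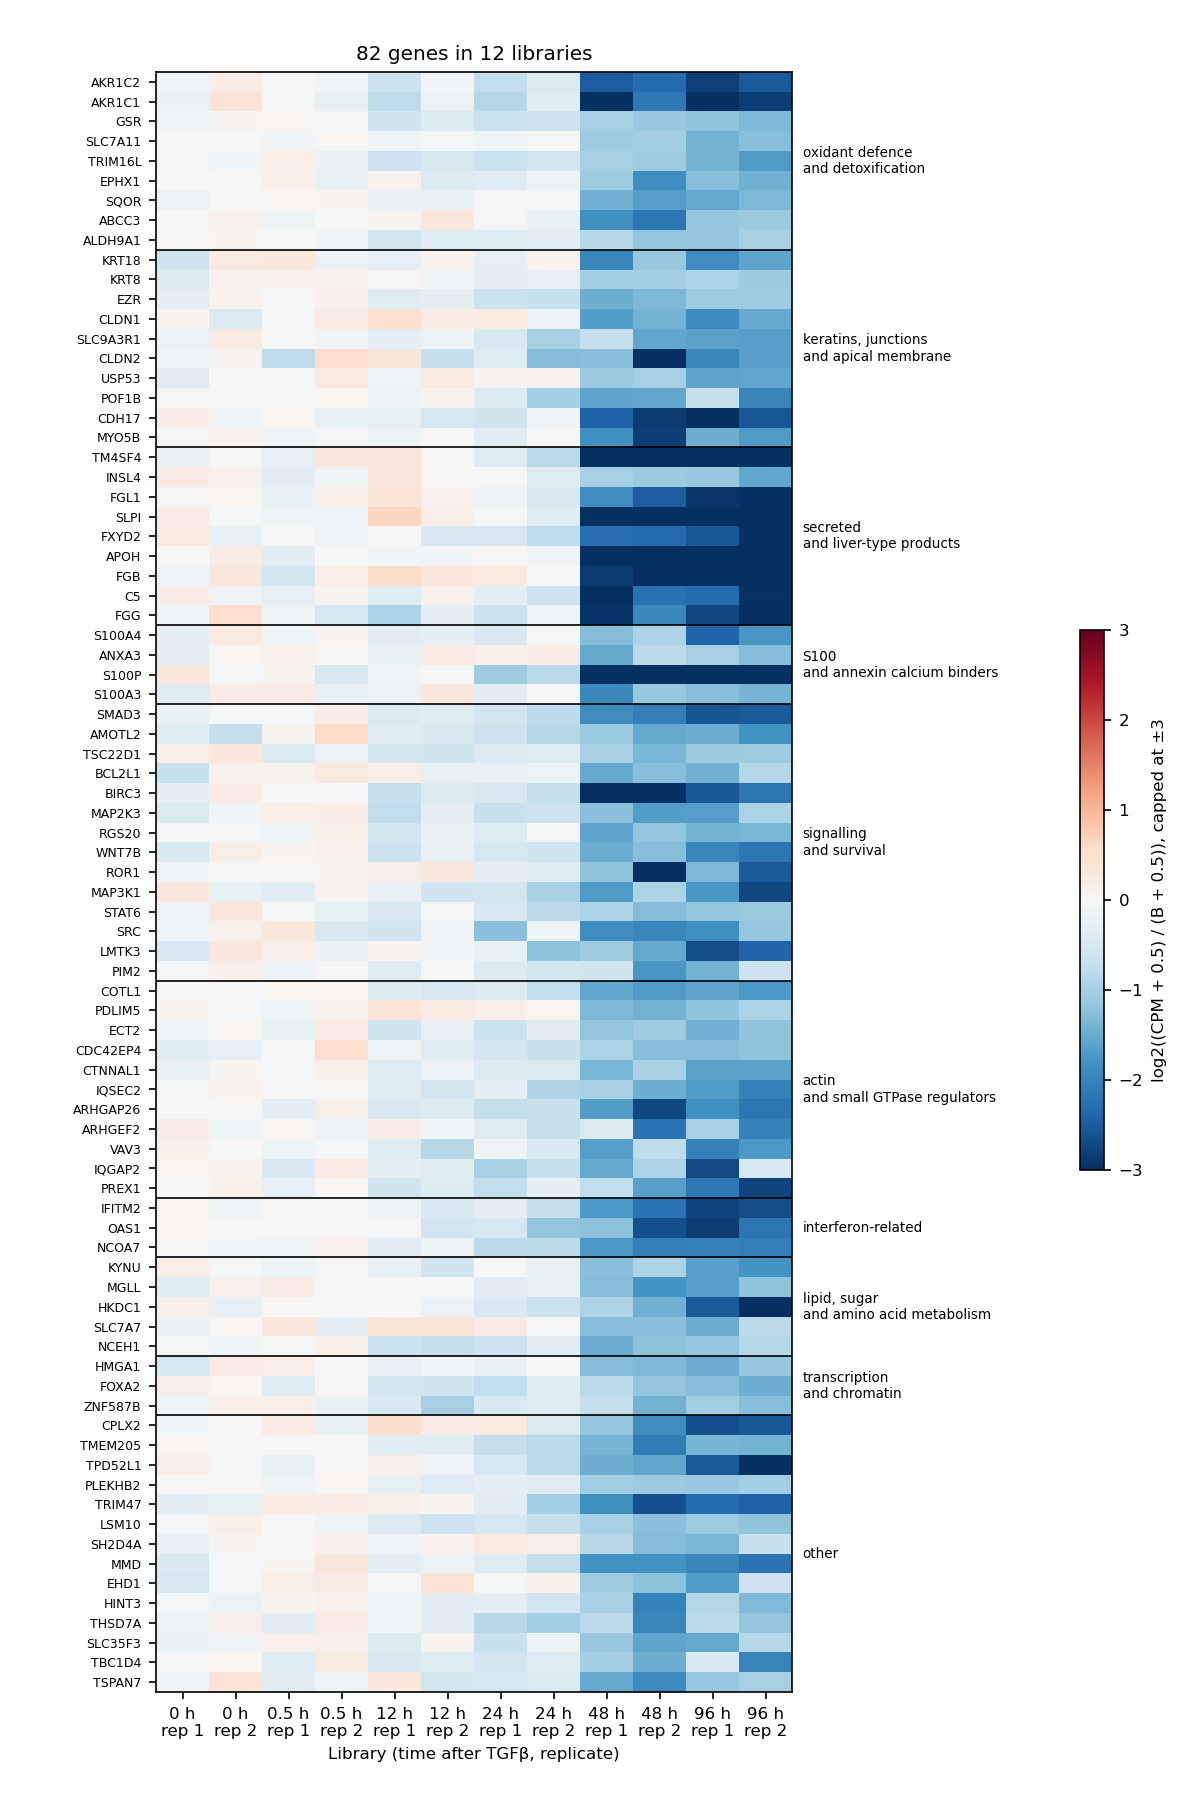
Level of 82 of the 84 genes (rows, grouped by known role and ordered by B within a group) in the 12 libraries (columns), as log2 of (CPM + 0.5) over (B + 0.5), with colors capped at 3 in each direction. The main step from pale to blue lies between the 24 h and 48 h columns in most groups, a contrast the rule selected for, and is deepest among secreted and liver-type products. The 3 transcription and chromatin genes were already lower at 12 h and 24 h (median 0.6745 of B, then 0.485 at 48 h).

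Secreted and liver-type products had the deepest late loss. SLPI, a protease inhibitor of airway secretions, stood at 49.4 and 40.3 CPM (0 h), 38.1 and 37.8 (0.5 h), 65.0 and 46.1 (12 h), and 40.2 and 31.9 (24 h). At 48 h 1 UMI was read in both libraries together, and none at 96 h. Expression was 209.6-fold lower at 48 h over summed counts (exact 95% interval 37.5 to 8294). That interval covers counting error only, and the gene was chosen by these same values. At 96 h expression was at least 38.2-fold lower against a floor of 3 UMIs over both libraries (1.08 CPM). APOH, a plasma phospholipid-binding glycoprotein, stood between 18.3 and 26.8 CPM in all 8 libraries up to 24 h, at 1.94 and 1.03 at 48 h, and at 0 in both libraries at 96 h, at least 21.1-fold lower. TM4SF4, a tetraspan membrane protein of liver and gut epithelium, stood at 128 and 149 CPM (0 h), 124 and 186 (0.5 h), 186 and 149.9 (12 h), 112 and 84.3 (24 h), 5.82 and 3.08 (48 h), and 6.33 and 3.996 (96 h). None of these 3 genes had a late library near an earlier one.

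The fibrinogen genes lie together on chromosome 4, and their timing differed. FGB, the β chain, was above B at 12 h and 24 h (24.3 against 19.6 CPM, the highest ratio among the 84 genes at 1.24), and was 1.90 ± 0.511 CPM at 48 h (SD, n = 2) and at 0 in both libraries at 96 h, at least 18.1-fold lower. FGG, the γ chain, started at 13.2 CPM, stood at 9.37 at 12 h and 24 h and 2.18 at 48 h, and was read 2 times at 96 h, 18.1-fold lower with an exact interval of 4.93 to 150. FGA, the α chain, lies between them and was not selected: from 25.04 CPM it was at 0.349 of B at 12 h and 24 h and was not detected at 48 h or 96 h, where 3 UMIs over both libraries would be 0.595 and 1.08 CPM. So at 12 h and 24 h the 3 chains, which are assembled in equal numbers in the protein, stood at different fractions of their starting level.

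FGL1, a fibrinogen-related hepatokine, stood at 49.4 to 63.5 CPM at 0 h and 0.5 h, 41.4 to 74.8 at 12 h and 24 h, 15.2 and 9.74 (48 h), and 7.12 and 1.33 (96 h). Complement C5 stood at 0.128 of B at 48 h and 0.134 at 96 h. INSL4, a placental insulin-like peptide, was the mildest of the group at 0.480 and 0.392, and FXYD2, a regulator of the sodium pump, stood at 0.192 and 0.108. Summed over the 10 genes, levels were 379.7 to 482 CPM at 0 h and 0.5 h, 314 to 546 at 12 h and 24 h, 65.1 and 76.9 (48 h), and 36.0 and 59.3 (96 h). Split by time, the sums were 546 and 460 CPM at 12 h and 390 and 314 at 24 h, the last of these below every starting library. In the list of liver-type products, 14 genes had B of at least 10 CPM, and 6 of them met the rule (42.9%, against 1.15% of all such genes). A further 4 came down early (TFPI, IGFBP1, FGA and CP). HNF4A, a master regulator of hepatocyte genes, was above B throughout, at 4.78 of B at 12 h and 24 h, 4.86 at 48 h and 3.37 at 96 h. FOXA2, a pioneer factor of endoderm-derived epithelia and one of the 84 genes, stood at 50.8 CPM for B and 34.3, 25.4 and 19.3 at the later times, with its 48 h mean on the limit.

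Among calcium-binding proteins, S100P stood at 54.8 and 41.4 CPM (0 h), 45.7 and 31.4 (0.5 h), 40.3 and 41.7 (12 h), 20.4 and 24.6 (24 h), 0.646 and 0.513 (48 h), and 0 in both libraries at 96 h, at least 39.96-fold lower. Both 24 h libraries were lower than every earlier one. S100A4, often used as a mesenchymal marker, stood at 347 and 511 CPM (0 h), 386 and 448 (0.5 h), 332 and 351 (12 h), 309 and 409.7 (24 h), 173 and 221 (48 h), and 81.5 and 126.5 (96 h). It was the single member from a list of 14 mesenchymal markers with B of at least 10 CPM (7.14%, against 1.15% of all such genes). Of the 14, 12 were not below B at both late times (VIM, the intermediate filament of mesenchymal cells, stood at 2.04 of B at 48 h and 3.07 at 96 h). S100A3 overlaps S100A4 on chromosome 1, so its 7.33 to 8.72 CPM in 3 of the late libraries and 4.85 in the other are uncertain. S100A6, next to them, was just outside the rule at 48 h (0.505 of B).

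**Figure D2:**
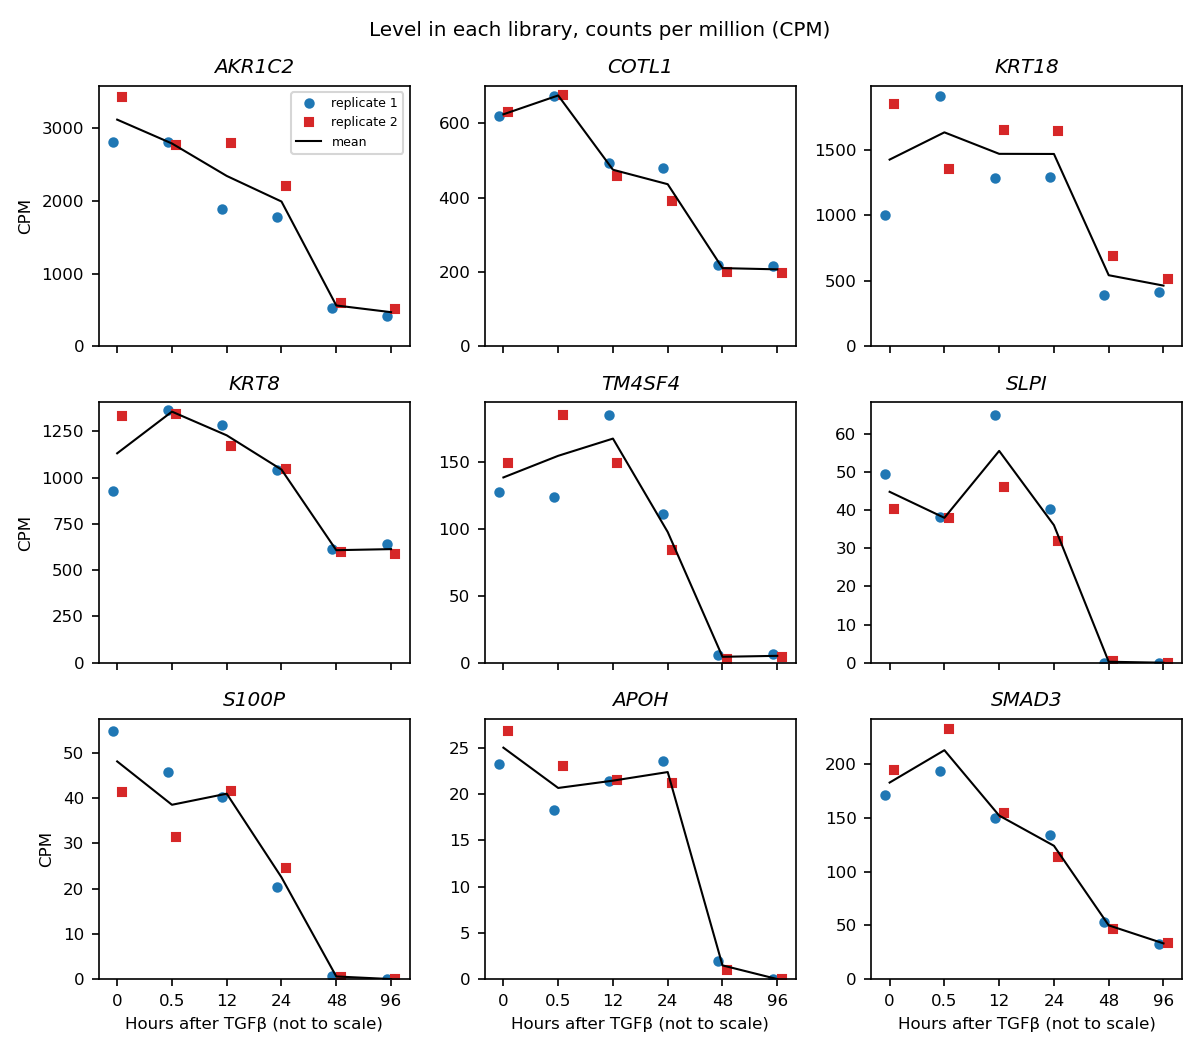
CPM of 9 of the genes in each library (blue circles, replicate 1; red squares, replicate 2) against hours after TGFβ, spaced evenly rather than to scale, with black lines through the means of 2. In every panel the 48 h and 96 h points lie below all earlier points, and SLPI, S100P and APOH reach 0 at 96 h.

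The 14 signaling and survival genes had median ratios to B of 0.379 at 48 h and 0.330 at 96 h, and those other than BIRC3 and WNT7B were named after their values were seen. SMAD3, the receptor-activated SMAD itself, stood at 172 and 194 CPM (0 h), 194 and 232 (0.5 h), 149 and 155 (12 h), 134 and 114 (24 h), 53.3 and 46.7 (48 h), and 32.4 and 34.0 (96 h). The 48 h mean was 3.96-fold and the 96 h mean 5.96-fold below B, with replicate libraries close together. BIRC3, an inhibitor of apoptosis and NF-κB target, stood at 6.89 ± 0.313 CPM at 48 h and 13.6 ± 2.44 at 96 h (SD, n = 2) against 72.1 for B. BCL2L1, which encodes the survival protein BCL-XL, was at 0.379 and 0.458 of B. The Wnt ligand WNT7B was at 0.373 and 0.228 of B, and ROR1, a receptor for Wnt5a, at 0.257 and 0.272. The kinases MAP2K3, MAP3K1, SRC and PIM2 and the transcription factor STAT6 stood between 0.241 and 0.459 of B at 48 h, although late and earlier libraries overlapped for MAP3K1 and SRC.

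Regulators of actin and of small GTPases formed a group of 11. COTL1, a filamentous-actin binding protein, stood at 619 to 677 CPM at 0 h and 0.5 h, 392 to 493 at 12 h and 24 h, 201 and 220.3 (48 h), and 198 and 217 (96 h). PDLIM5, a LIM-domain protein of stress fibers, was instead above B at 12 h and 24 h (382 to 476 CPM against 332 to 391 before) and at 144 and 136 CPM (48 h) and 158 and 187 (96 h). The guanine nucleotide exchange factors of the group, ECT2 (needed for cytokinesis), ARHGEF2, VAV3, PREX1 and IQSEC2, stood between 0.432 and 0.469 of B at 48 h. Late and earlier libraries overlapped for ARHGEF2 and VAV3, and ARHGEF2 was uneven at 48 h (19.1 and 5.13 CPM). In the list of actin and focal adhesion genes, EZR and PDLIM5 met the rule, of 36 with B of at least 10 CPM (5.56%, against 1.15% of all such genes). Of the 36, 31 were not below B at both late times. Of the 76 genes for G2/M and mitosis with B of at least 10 CPM, ECT2 was the single member (1.32%, close to the 1.15% of all such genes).

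The remaining genes included 3 related to interferon and viral defence. IFITM2, which blocks virus entry, stood at 207 to 236 CPM at 0 h and 0.5 h, 139 to 203 at 12 h and 24 h, 67.5 and 48.2 (48 h), and 32.4 and 35.3 (96 h), and OAS1, a sensor of double-stranded RNA, at 0.288 and 0.172 of B. IFITM2 has close paralogs, and reads shared with them are uncertain. KYNU, an enzyme of tryptophan breakdown, stood at 638 CPM for B, 535 at 12 h and 24 h, 299 at 48 h and 196 at 96 h. CPLX2, a regulator of vesicle fusion, stood at 346 to 477 CPM at 0 h and 0.5 h, 295 to 573 at 12 h and 24 h, 178 and 109 (48 h), and 64.1 and 67.9 (96 h). HMGA1, a chromatin-binding protein, was at 0.398 and 0.403 of B.

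Across the 84 genes the median ratio to B was 0.786 at 12 h and 24 h (all 7315 genes with B of at least 10 CPM, 0.963), 0.375 at 48 h (0.948) and 0.328 at 96 h (0.962). The members were thus not flat before 24 h: 43 stood under 0.8 of B in the mean of 12 h and 24 h, 28 between 0.8 and 1, and 13 above B. Split by time, the median was 0.862 at 12 h and 0.718 at 24 h. For 72 of the 84 genes all 4 late libraries were below all 8 earlier libraries, as they were for 7.10% of all genes with B of at least 10 CPM. Since the rule used this contrast, nothing is read from that count. Of the other 12, 10 had B under 30 CPM. All 84 together made up 1.53% to 1.75% of the protein-coding UMIs before 12 h, 1.45% ± 0.0516 at 12 h (SD, n = 2), 1.26% ± 0.00355 at 24 h, 0.565% ± 0.0144 at 48 h and 0.486% ± 0.0131 at 96 h.

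**Figure D3:**
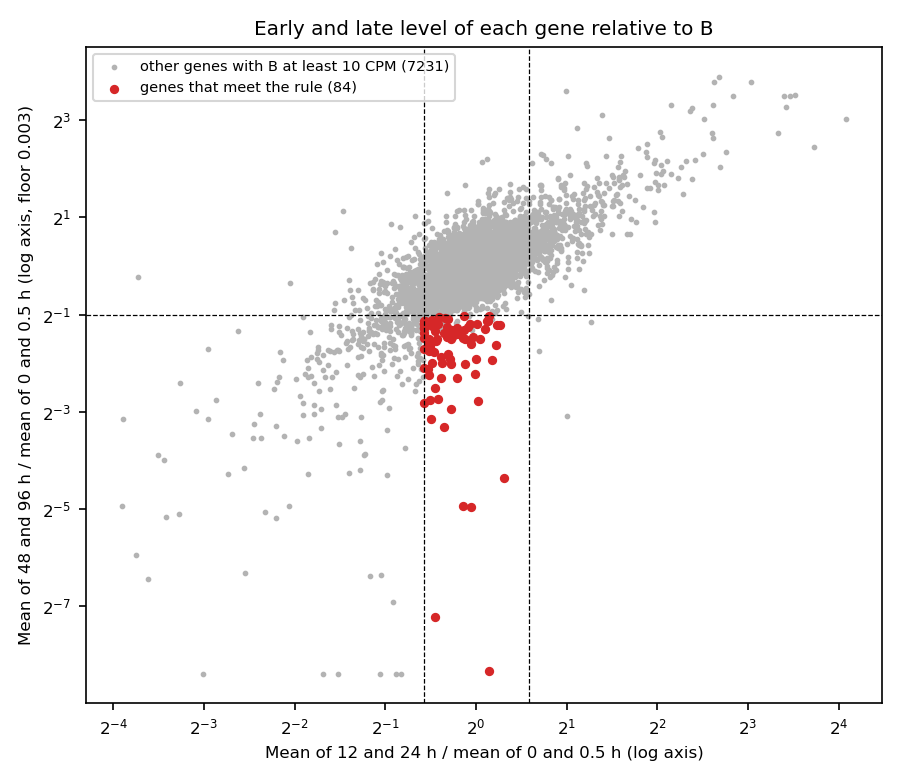
Each of 7315 genes with B of at least 10 CPM by its mean at 12 h and 24 h relative to B (horizontal, log axis) and its mean over 48 h and 96 h relative to B (vertical, log axis, lowest value shown 0.003), with the 84 genes in red and the limits of the rule dashed. Of the red points 43 lie under 0.8 on the horizontal axis and 31 at 0.4 or more on the vertical axis, and a few (SLPI, S100P, TM4SF4, APOH, FGB) lie far below the rest.

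The limits cut through a continuum. Just inside the early limit of 0.67 were NCEH1 (0.6702) and MAP3K1 (0.671), and just outside it CYP2S1 (0.668) and AKR1B15 (0.667). At the 48 h limit, FOXA2 (0.4998) and ALDH9A1 (0.494) were inside and S100A6 (0.505) and EEF1AKMT4 (0.518) outside. At the 96 h limit, SH2D4A (0.4995) and THSD7A (0.499) were inside and ABHD17C (0.501) and SHTN1 (0.51) outside. For the starting level, TSPAN7 (11.1 CPM) and PIM2 (11.4) were inside and MUC13 (9.08) and GLP2R (8.70) outside. On the upper side of the early limit, FGB (1.24) and SLC7A7 (1.20) were the nearest inside, and KRT80 (1.61) and NTS (2.003) met every other limit. Among genes with B of at least 10 CPM that were at most 50% of B at both late times (4.46%), 240 had already been below 0.67 of B at 12 h and 24 h, against the 84 described here and 2 above 1.5.

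The rule was also applied in a single replicate number, and the genes it chose there were read in the other number. The set described above was chosen with both numbers, so it was not itself read in unused libraries. The labels do not say that the libraries of a time came from separate cultures. This reading may therefore not be independent, and its counts are descriptions. In replicate 1, 68 genes met it, and in replicate 2 54 of these were at most 50% of B at both late times, against 4.76% of the 7378 genes with B of at least 10 CPM there, and 36 met the whole rule (1.18% of those genes did). In replicate 2, 87 genes met it, and in replicate 1 48 were at most 50% of B at both late times, against 3.80%, and 36 met the whole rule (0.940%). For the genes chosen in replicate 1, the median in replicate 2 was 0.746 of B at 12 h and 24 h, 0.303 at 48 h and 0.265 at 96 h. For those chosen in replicate 2, the medians in replicate 1 were 0.855, 0.442 and 0.388.

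Wells below the gene limit gave a second reading, from the same libraries and so not independent. In wells with at least 1000 but under 2000 detected genes, the 84 genes made up 1.48% to 1.80% of protein-coding UMIs at 0 h and 0.5 h, 1.18% to 1.49% at 12 h and 24 h, 0.528% and 0.56% (48 h), and 0.387% and 0.471% (96 h). Of 82 members with B of at least 10 CPM in those wells, 57 were at most 50% of B at both late times, against 17.2% of all such genes. These libraries were shallow, 9989 to 195887 UMIs, and at 96 h replicate 2 only 3 wells contributed. Wells with fewer than 1000 genes carried shares of 1.19% to 1.82% up to 12 h, 1.103% and 1.24% at 24 h, and 0.414% to 0.545% at 48 h and 96 h, close to those of the cells sorted in the same library.

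Pairs of times whose difference the rule did not use were compared with edgeR's quasi-likelihood test over all 10465 genes that passed its count filter and Benjamini-Hochberg adjustment. Between 48 h and 96 h, 1.21% of genes passed an adjusted p of 0.05, and 4 of the 84 genes did, 3 lower at 96 h (0.411% of all genes) and 1 higher (0.803%). HKDC1, a hexokinase-like protein, stood at 69.5 and 51.6 CPM (0 h), 63.4 and 62.5 (0.5 h), 61.2 and 54.8 (12 h), 44.7 and 39.2 (24 h), 32.3 and 22.6 (48 h), and 10.3 and 5.33 (96 h). It fell by 1.92 on the log2 scale between 48 h and 96 h (SE 0.349, adjusted p = 0.00464). TPD52L1, of the tumor protein D52 family involved in vesicle traffic, fell by 1.34 (SE 0.264, adjusted p = 0.00902), from 43.0 and 40.5 to 20.6 and 13.98 CPM. S100A4 fell by 0.94 (SE 0.21, adjusted p = 0.0231). None of these 3 calls held under every setting. HKDC1 and TPD52L1 were not called with stricter wells, and S100A4 was not called without scaling beyond the library sum.

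ABCC3, an exporter of conjugated bile acids and glucuronides, was the member that rose, by 0.84 (SE 0.212, adjusted p = 0.0493), from 26.2 and 20.5 CPM (48 h) to 42.7 and 44.6 (96 h), against 87.8 to 104 at 0 h and 0.5 h. KYNU, with a log2 difference of -0.65 (SE 0.18, adjusted p = 0.0791), FGL1, with -1.72 (SE 0.484, adjusted p = 0.0866), and SMAD3, with -0.64 (SE 0.202, adjusted p = 0.142), did not pass. Over the 84 genes, 58 had a lower fitted value at 96 h than at 48 h, as did 51.2% of all genes, and the median log2 difference was -0.21 for the members and -0.01 for all genes. The call for ABCC3 was lost when any 1 of the 12 libraries was left out, and DESeq2 and upper-quartile scaling did not make it. Only 1 of the 84 genes passed without replicate 1 of 48 h (S100A4), replicate 1 of 96 h (HKDC1) or replicate 2 of 96 h (S100A4).

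**Figure D4:**
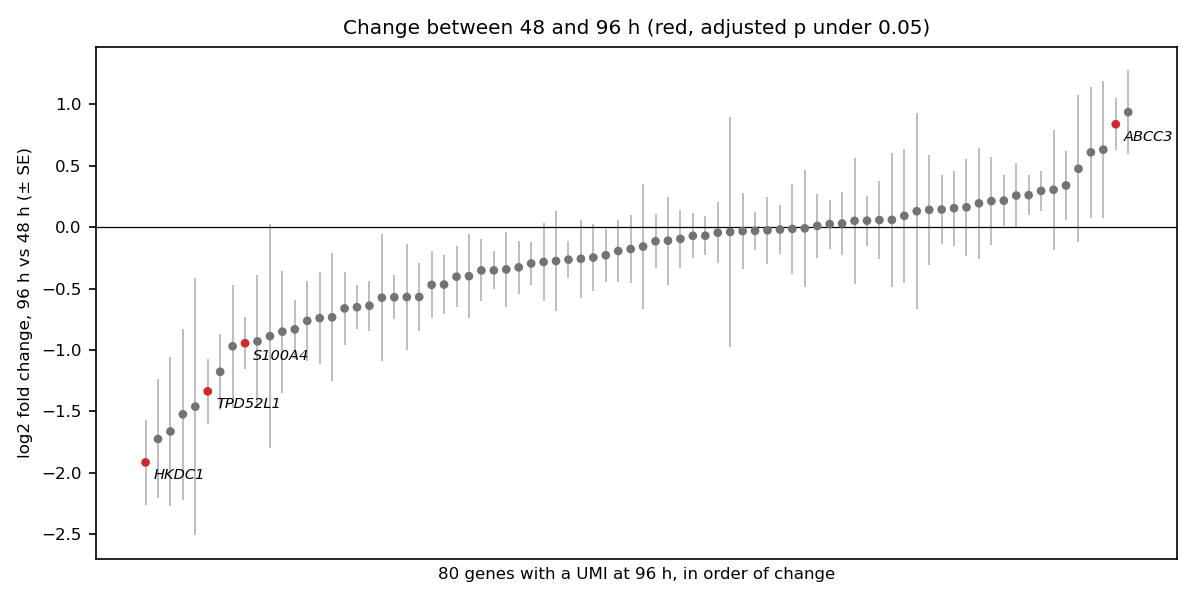
Log2 fold change between 48 h and 96 h with its SE for the 80 genes that had a UMI at 96 h, in order of change, from edgeR. The 4 red points passed an adjusted p of 0.05: HKDC1, TPD52L1 and S100A4 are below 0 and ABCC3 is above it.

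Between 12 h and 24 h edgeR called 0 of 10465 genes (0%), with 572 at an unadjusted p under 0.05, and DESeq2 called 2, none of them a member. Without the count filter edgeR called 31 (0.201%), among them 1 member, TM4SF4, lower at 24 h. Of the 84 genes, 8 had an unadjusted p under 0.05, led by S100P (log2 difference -0.83, SE 0.228, adjusted p = 0.459) and TM4SF4 (-0.72, SE 0.198, adjusted p = 0.459). The fitted value was lower at 24 h for 60 of the 84 genes and for 50.1% of all genes, with a median log2 difference of -0.18 for the members. Between 0 h and 0.5 h, 0.440% of genes passed (0.392% higher and 0.0478% lower at 0.5 h) and 1 member did, higher at 0.5 h. AMOTL2, an angiomotin-family scaffold of the Hippo pathway, stood at 83.8 and 67.1 CPM (0 h) and 117 and 164 (0.5 h), a log2 rise of 0.85 (SE 0.193, adjusted p = 0.0473), and then at 59.0 to 83.1 at 12 h and 24 h. Its B of 107.8 CPM is therefore a mean over a rise. With the 0 h mean of 75.5 CPM alone as B, AMOTL2 would miss the 48 h limit, at a mean of 43.2 CPM. DESeq2 did not call it, and the call was also lost without either library of 0 h, 12 h or 96 h or without replicate 2 of 0.5 h.

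The members' share was also described in single cells. The rule chose the 84 genes by their sums over these same cells, so a lower late share was fixed in advance. Nothing is read from that difference, and the values describe the spread between cells. The median cell gave 1.51% to 1.73% of its protein-coding UMIs to the 84 genes at 0 h and 0.5 h, 1.22% to 1.48% at 12 h and 24 h, and 0.526% and 0.583% (48 h) and 0.428% and 0.462% (96 h). No cell of 48 h or 96 h reached the median of the 24 h cells (1.23%), and 6 of 131, 8 of 149, 1 of 54 and 5 of 64 cells reached their 5th percentile (0.811%).

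**Figure D5:**
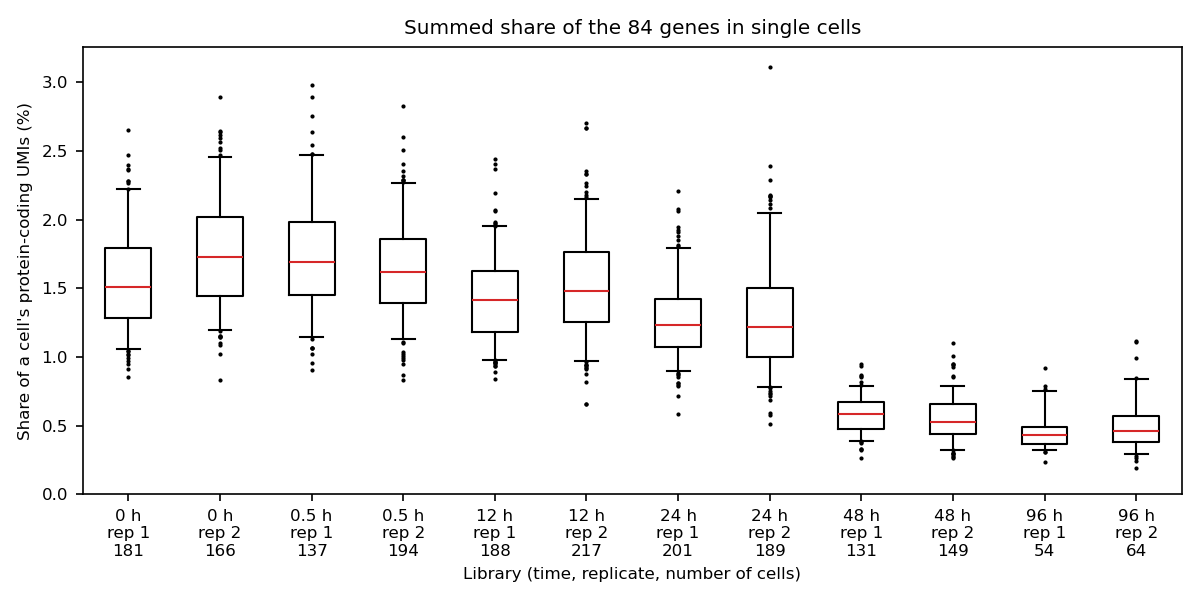
Share of each cell's protein-coding UMIs that belonged to the 84 genes, by library (boxes, quartiles with the median in red; whiskers, 5th and 95th percentiles; points, cells outside them), with the number of cells under each label. The boxes at 48 h and 96 h lie below the whiskers of every earlier library.

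Detection in the same cells was described after thinning every cell to 12506 UMIs, which kept 1684 cells and left out 4 to 59 per time. TM4SF4 was then found in 51.4% to 72.5% of cells in the libraries up to 24 h, in 3.88% and 3% at 48 h, and in 1.96% and 4.76% at 96 h. SLPI was found in 22.5% to 39.3% of cells up to 24 h, and afterwards in 1% of cells of one 48 h library and none of the other 3. Unlike these, KRT18 stayed detectable in 93.7% or more of the cells at 48 h and 96 h, while its mean count among cells with a UMI went from 16.2 at 24 h to 5.88 and 5.36. Without thinning, TM4SF4 was in 56.6% to 83.0% of cells up to 24 h and 3.70% to 10.7% afterwards, and SLPI in 27.0% to 49.5% and at most 0.671%. Wells with under 1000 genes, whose median was also under 1000 UMIs, had a TM4SF4 UMI in 14.8% of cases up to 24 h and 0.196% afterwards, and a SLPI UMI in 2.14% and 0.0979%. How much free RNA adds to the shares was not tested.

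KRT8 and KRT18 varied together across cells (Pearson r of log-scaled levels 0.688 to 0.841 in each library up to 24 h and 0.395 to 0.638 afterwards), and AKR1C1 and AKR1C2 likewise (0.564 to 0.771 over the 12 libraries). These correlations share depth within a library and are descriptions, and for the AKR1C pair shared reads could add to them.

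Over the 58 promoters of members in the table, matches to single motifs were set beside the 6021 promoters of genes with B of at least 10 CPM and all 27305 promoters. The GC box (GGGCGG) was in 46.6% of the members' promoters, 72.1% of those of genes with B of at least 10 CPM and 44.6% of all, and the median GC content was 60.8%, 65.7% and 58.3%. The CCAAT box was in 48.3%, 37.5% and 35.7%, the TATA box in 10.3%, 5.28% and 12.0%, and the AP-1 motif in 10.3%, 4.05% and 7.76%. The AP-1 matches were in APOH, CLDN2, EZR, MAP2K3, S100A3 and VAV3. The NRF2-type element (TGACNNNGC, which can overlap an AP-1 match) was in 20.7%, 15.8% and 13.6%, and in neither of the AKR1C windows printed. The CAGGTG E-box was in 15.5%, 16.2% and 20.6%, the FOXA-type motif (TGTTTAC) in 3.45%, 2.31% and 3.41%, and the MYC-type E-box (CACGTG) in 3.45%, 10.9% and 7.43%. The SMAD palindrome and the HNF1-type and HNF4-type motifs were in none of the 58 windows and in at most 0.308% of all windows. These shares describe 300-base windows and were not tested.

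Of the 84 genes, 33 were in at least one of the 43 gene lists and 51 in none. The lists without a member, among those with a gene at B of at least 10 CPM, numbered 25, and included 77 cytosolic ribosomal proteins, 73 nuclear-encoded subunits of the respiratory chain, 33 proteasome genes, 56 genes of G1/S and DNA replication and 20 of cholesterol synthesis. Their median ratios to B were 1.17, 0.979, 0.907, 0.966 and 0.945 at 48 h, and 1.16, 0.890, 0.836, 0.936 and 1.60 at 96 h. Other lists without a member stood further from B at 48 h, with medians of 2.69 for 4 EMT transcription factors and 1.67 for 19 TGFβ and SMAD targets. The 84 genes lay on 22 chromosomes, and 6 pairs were within 500 kb of each other: AKR1C1 and AKR1C2, KRT8 and KRT18, S100A3 and S100A4, FGB and FGG, ECT2 and NCEH1, and NCOA7 and HINT3. In the last pair the genes are 24736 bases apart on chromosome 6, and TRMT11, beside HINT3, stood at 0.715 and 0.559 of B at the late times without meeting the limits.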

How the data were processed

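The authors deposited counts, UMIs per gene and well for all 4608 wells, using (per the labels) UMI-tools, featureCounts 2.0.1, the aligner HISAT2 2.2.1 with the GRCh38 build, and Trim Galore 0.6.7. Neither strand setting nor annotation release was found, so overlapping and antisense genes are uncertain. Protein-coding UMIs of the kept wells were added up for each library and scaled to CPM without further normalization. One sorted cell per well was assumed and no doublet caller was run. Replicate 1 libraries all carried one barcode set and replicate 2 the other. Tests used edgeR 4.0.16 in R 4.3.3 (TMM, filterByExpr, robust quasi-likelihood fit, one mean per time over 12 libraries), with DESeq2 1.42.0 as an alternative, and were tested on simulated data. SE is the size of the log2 change over the square root of F. Members, gene lists and comparisons were chosen with earlier results of these data known, and role groups were set after the values were seen. The genes named were the 12 with the highest B, the 12 with the lowest late ratio, up to 4 per list, up to 6 called per test, the 2 nearest each side of a limit, and others singled out after their values were seen. A depth of 1264044 UMIs makes 1 UMI just under 1 CPM. Intervals and floors (3 UMIs) cover counting error only, and take no account of the choice of the genes by the same values. Positions are from GENCODE 44, promoters from RefSeq. Python 3.11.15 was used. Some items are not reported here.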

Additional observations from a re-analysis of the deposited data

How the results depend on the processing

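The number of genes that met the rule was 84, and stayed within 1.5 times that under 8 of 14 other settings and without each library in turn (70 to 96). It was 44 with UMIs per cell in place of CPM, 41 with narrower early limits (from 0.8), 50 with 12 h and 24 h each inside the limits, 39 with a late limit of 0.4, 184 with 0.6, and 36 with the limits met in each replicate number. With stricter wells 114 genes met it, 36 of them among the 84, and 31 of the 84 met it without any 1 of the 12 libraries. With 0 h alone as B 80 genes met it, 64 of them among the 84. Same-numbered libraries did not deviate together at every time (r from -0.0919 to 0.274 over 15 pairs of times, 6 over 0.1), so they were not treated as paired. With the number as a replicate block the calls were 237 genes at 96 h vs 48 h, with 8 members, and 21 at 24 h vs 12 h, and 56 at 0.5 h vs 0 h. For 96 h vs 48 h, 127 genes became 258 without the count filter and 29 with stricter wells, and 32 to 134 without single libraries (32 and 35 without replicates 1 and 2 of 96 h). Its 4 members became 8 without the count filter, 1 with stricter wells, 2 with thinned libraries, and 1 to 4 without single libraries (1 without replicate 1 of 48 h or either 96 h library). For 24 h vs 12 h, 0 genes became 2 with DESeq2, 31 without the count filter (1 member, TM4SF4), 1 with stricter wells and 0 to 3 without single libraries. For 0.5 h vs 0 h, 46 genes became 13 with stricter wells and 23 to 51 without single libraries (23 and 29 without replicates 1 and 2 of 0 h), and AMOTL2 lost its call with DESeq2, stricter wells and thinned libraries. A library left alone in its time is assumed to vary like the others. The causes were not tested.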

Other observations

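Of 317 genes not annotated as protein-coding with a starting level of at least 10 on the same scale, 1 met the same limits: the long non-coding RNA AC019068.1, at 11.9 for B, 0.743 of B at 12 h and 24 h, 0.472 at 48 h and 0.471 at 96 h.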
